A study of Mus musculus with 8 samples.

Results

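The genes described here are 50 mitosis genes of the mouse: the cyclins and kinases that drive entry into division, and the proteins that build the spindle, attach and separate the chromosomes and divide the cell. They were taken by symbol from a list of G2 and M phase genes. No measured value enters that rule, but the list was drawn up with earlier results of these data known. All 50 were found among the 18790 named genes of the deposited tables. All 50 also passed the filter on low counts that left 11965 genes for testing, and the lowest count of any of them in any library was 550.

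The study compared 2 cell populations sorted from femoral bone marrow of untreated C57BL/6 mice, with 4 biological replicates of each. Both came from mice carrying Csf1r-EGFP, a transgene in which regulatory sequence of the macrophage growth factor receptor gene Csf1r drives green fluorescent protein, so every library shares that transgene. The CD11b+ population was gated as CD11b+, F4/80+, Ly6G-, low for GFP and VCAM1+, and the CD11b- population as CD11b-, F4/80+, GFP+ and VCAM1+. The labels put the word macrophage in quotation marks for both, and they give neither the age or sex of the mice nor whether animals were pooled.

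Cells entering mitosis switch on a shared set of genes late in the cell cycle. Cyclin B bound to the kinase CDK1 starts the process, the Aurora and Polo kinases order its steps, and the anaphase-promoting complex ends it by marking cyclin B and securin for destruction. In bone marrow, division is a feature of progenitors and precursors of many lineages, while mature cells have largely left the cycle. In these bulk samples, fewer cells of a type and less RNA per cell cannot be told apart.

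Total counts ran from 36604660 to 47951234 in the CD11b+ libraries and from 27462607 to 35160747 in the CD11b- libraries. Macrophage markers were measured in both, in CPM (a gene's count scaled to its library's total). The summed level of 18 of them was 1212 to 1293 CPM in CD11b+ and 727 to 1076 CPM in CD11b-. Of the 18, 4 (22.2%) were called higher in CD11b+, 2 (11.1%) lower and 12 not called. Over all tested genes 14.6% were called higher and 15.0% lower, so these counts are no clear result about macrophage markers. The sum and the single genes differed in direction: 12 of the 18 had a log2 fold change below 0, with a median of 1.51-fold lower in CD11b+. Vcam1 (393 against 107 CPM) and Slc40a1 (384 against 248 CPM) made up much of the sum, and VCAM1 and F4/80, the product of Adgre1, were part of both sort gates. Markers of other cells differed far more. The summed level of 12 erythroid markers was 748 to 1207 CPM in CD11b+ libraries, against 31201 to 42519.6 CPM in CD11b- libraries, and all 12 were called lower in CD11b+. For 12 B progenitor markers the sums were 53.2 to 130.3 CPM against 1148 to 2367 CPM, with 9 of the 10 tested called lower. In the other direction, 5 primary granule markers summed to 57821 to 85047 CPM in CD11b+ libraries, against 469 to 6799 CPM in CD11b- libraries, and all 5 were called higher. The sums were 61692 to 87452 against 129.8 to 657 CPM for 8 later neutrophil granule markers, 6 of them called higher. They were 6345 to 17974 against 64.7 to 450.3 CPM for 5 eosinophil markers, 2 of them called higher. Among 4 mature lymphocyte markers, Nkg7 was called higher in CD11b+ (means of 1204 against 170.4 CPM) and Cd3g lower (0.712 against 17.6 CPM). Ms4a1 (5.23 against 60.6 CPM) and Cd3e (0.221 against 0.934 CPM) were not called, and the median of the 4 was 6.74-fold lower. Their sum, mostly Nkg7, went the other way, at 1105 to 1520 CPM in CD11b+ libraries against 183 to 353 CPM in CD11b- libraries. Cd3e and Cd3g were at low levels. None of these markers was at 0 in every library of a population. Prg2 made up most of the eosinophil sum in CD11b+ (a mean of 10773 of 12850 CPM). Ccr3 of that list (means of 17.8 against 32.3 CPM) and Mmp8 of the later granule list (8.14 against 14.5 CPM) were lower in CD11b+, neither of them called. The mitosis genes, described next, were lower in CD11b+ like the erythroid and B progenitor lists. The granule and eosinophil lists went the other way by their sums and by every gene called, but not by every gene. The macrophage and lymphocyte lists had no single direction. The part of these other cell types in the result was not tested.

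Nearly all mitosis genes were lower in the CD11b+ population. By edgeR's quasi-likelihood test with Benjamini-Hochberg adjustment over all tested genes, 47 of 50 were called lower in CD11b+ at an adjusted p of at most 0.05. The other 3 were Foxm1, Ttk and Spc24. None was called higher, and the same count of 0 was found at an unadjusted p of at most 0.05 and with DESeq2, limma and voom. Across all tested genes, 15.0% were called lower, 14.6% higher and 29.7% in either direction. The members' median log2 fold change, CD11b+ over CD11b-, was -1.59, which is 3.02-fold lower, with quartiles of -1.82 and -1.02. For all tested genes the median was -0.01, with quartiles of -0.85 and 0.83. Of the 47 genes called, 38 were at least 2-fold lower and 26 at least 3-fold lower.

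The separation held library by library. For 46 of 50 members, all 4 CD11b+ libraries lay below all 4 CD11b- libraries, an arrangement seen in 18.4% of tested genes. Together the 50 genes took 1.12%, 1.14%, 1.03% and 0.971% of the counts in CD11b+ replicates 1 to 4. They took 2.92%, 3.11%, 3.37% and 3.15% in CD11b- replicates 1 to 4. The summed level was 10666 ± 789 CPM in CD11b+ libraries, against 31352 ± 1836 CPM in CD11b- libraries (SD, n = 4 each), 2.94-fold apart. The median coefficient of variation of single members was 13.5% in CD11b+ and 14.0% in CD11b-, against 17.2% and 22.7% for 4441 tested genes in the same range of level.

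**Figure D1:**
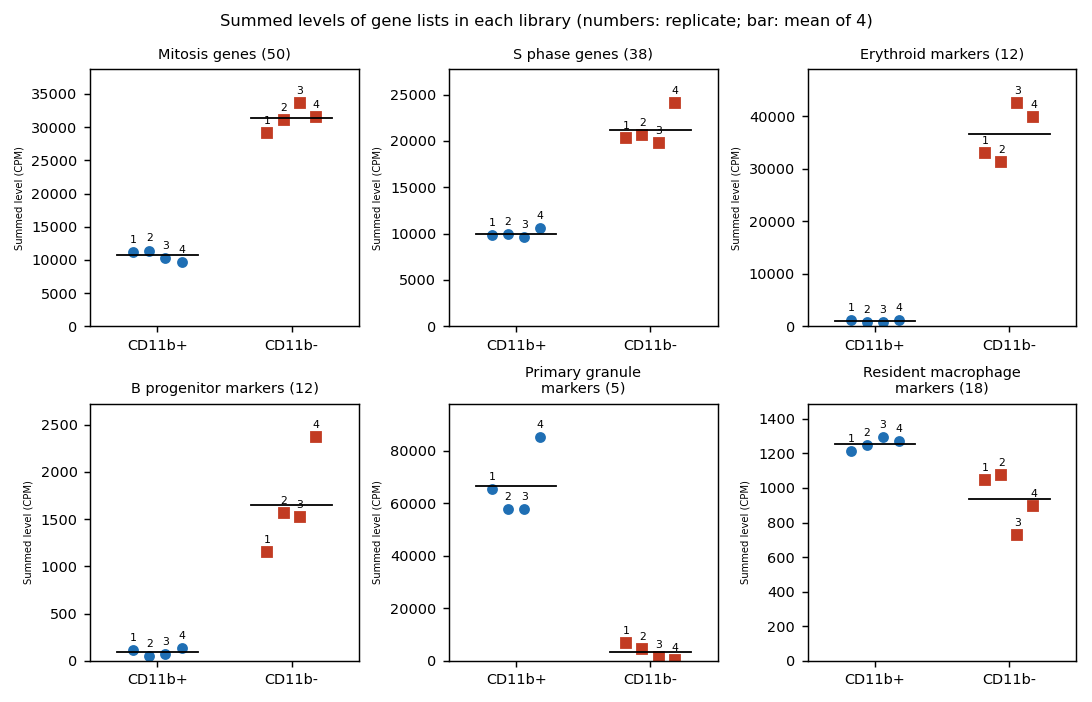
Summed level in CPM (vertical axes, from 0) of 6 gene lists in each library, with points numbered by replicate, circles for CD11b+, squares for CD11b- and a bar at the mean of 4. The mitosis genes sit at 9714 to 11414 CPM in CD11b+ libraries, against 29190.2 to 33665 CPM in CD11b- libraries; the erythroid, B progenitor and S phase sums are higher in CD11b- too, and the primary granule sum is higher in CD11b+.

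Per kilobase of exon, the 50 genes stood in much the same order of level in both populations, with a Spearman rho of 0.899 given as a description across genes that share their libraries. Ccnb2 was the highest per kilobase in both, at 256 CPM per kb in CD11b+ and 1058 CPM per kb in CD11b-. Cdc20 (165 and 343 CPM per kb), Plk1 (158 and 403) and Pttg1 (93.7 and 336) were also high. The lowest was Espl1 in CD11b+ (3.32 CPM per kb) and Foxm1 in CD11b- (7.03 CPM per kb). The median over the members was 31.6 CPM per kb in CD11b+ and 100.3 CPM per kb in CD11b-.

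**Figure D2:**
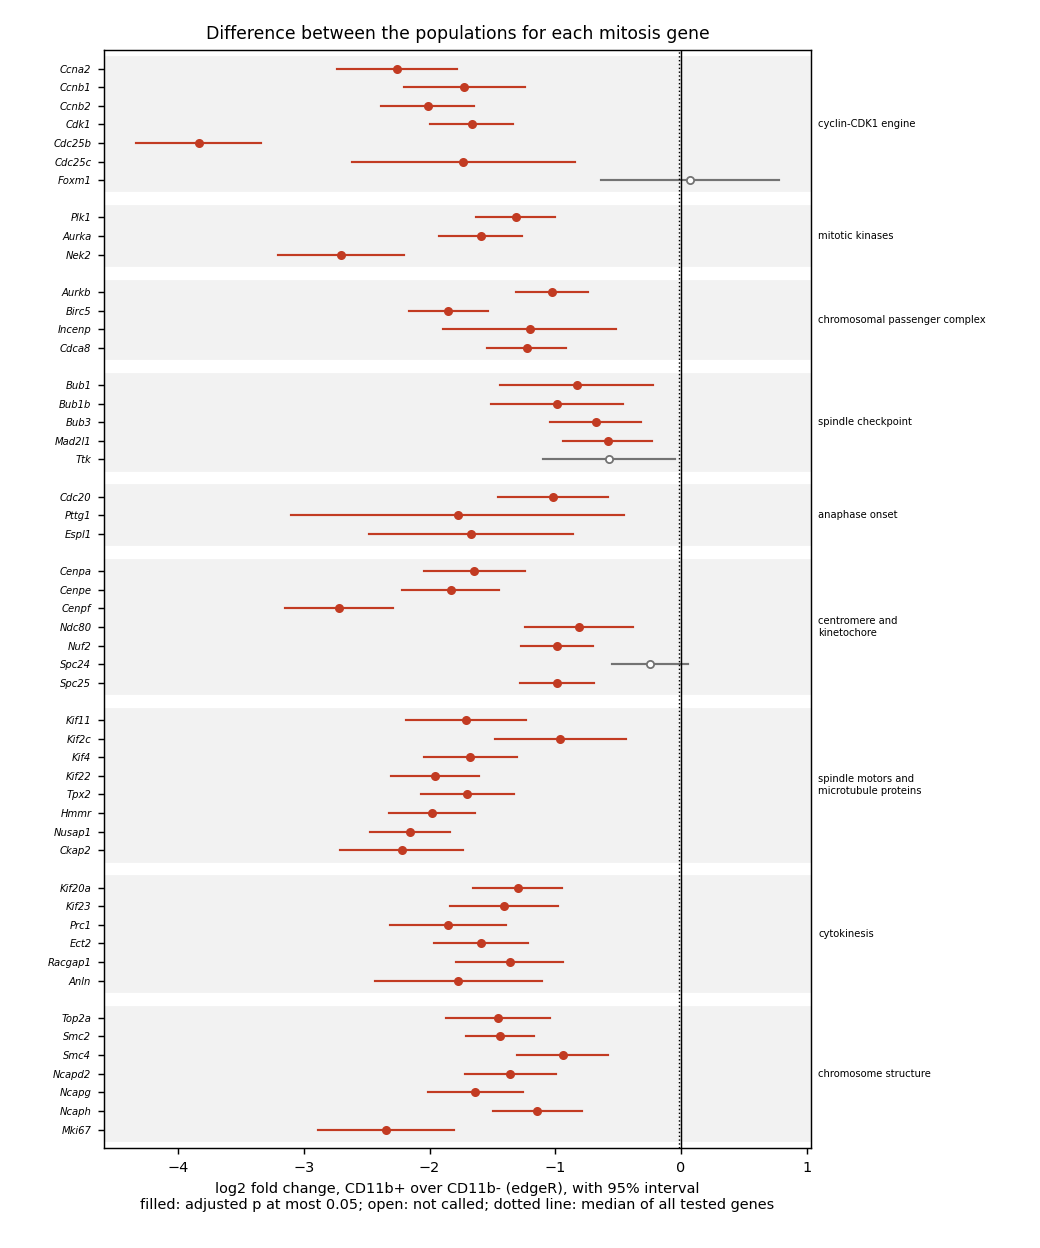
log2 fold change of each of the 50 genes, CD11b+ over CD11b- (horizontal axis), with its 95% interval from edgeR, grouped by role. Filled points are the 47 genes called lower, open points are Foxm1, Ttk and Spc24, the solid line marks 0 and the dotted line the median of all tested genes, -0.01.

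Mitotic promoters are known for a pair of short elements, CCAAT boxes that bind the factor NF-Y and the cell cycle homology region (CHR) that binds the MuvB complexes, usually close to the start of transcription. Promoter windows from RefSeq (GRCm38.p6, 250 bases before to 50 after each start) matched 41 of the 50 members, with 44 windows in all. Both strands were searched for CCAAT, read on the other strand as ATTGG. The CHR was searched as the core TTTGAA, which the other strand reads as TTCAAA, as the palindrome TTTAAA and as the further palindrome TTCGAA. A CHR core and a CCAAT can share a single end base. CCAAT was present in 79.5% of the members' 44 windows, against 37.4% of 32851 windows of all genes. More than a single CCAAT was present in 50% against 11.7%. A CHR core was present in 86.4% against 28.8%, and it began within 60 bases of the start in 72.7% against 9.49%. A window with both was found in 77.3% against 11.3%. The entries not matched were Incenp, Cdc25c, Smc4, Kif20a, Foxm1, Spc24, Aurkb, Tpx2 and Ccna2.

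The stretches below run from 100 bases before the start to 30 bases from it, 5′ to 3′ on the gene's strand, with both readings of the CCAAT box and the CHR cores in capitals. They show the layout in 6 members called lower, in Ttk, which was not called, and in Nusap1, which was called lower and holds none of these letters. The stretches were picked by symbol with no set rule, and do not stand for every member. They lie at chr9:70421525-70421654 on the minus strand (Ccnb2), chr10:69352883-69353012 minus (Cdk1), chr2:131186848-131186977 plus (Cdc25b), chr2:172370541-172370670 minus (Aurka), chr4:118437314-118437443 minus (Cdc20), chr19:37376282-37376411 plus (Kif11), chr9:83834589-83834718 plus (Ttk) and chr2:119618198-119618327 plus (Nusap1).
Ccnb2: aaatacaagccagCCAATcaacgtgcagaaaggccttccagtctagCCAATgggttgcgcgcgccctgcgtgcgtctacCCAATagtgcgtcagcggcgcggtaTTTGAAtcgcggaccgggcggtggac
Cdk1: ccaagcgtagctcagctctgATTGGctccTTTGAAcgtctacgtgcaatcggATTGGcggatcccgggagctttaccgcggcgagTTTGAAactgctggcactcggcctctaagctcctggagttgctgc
Cdc25b: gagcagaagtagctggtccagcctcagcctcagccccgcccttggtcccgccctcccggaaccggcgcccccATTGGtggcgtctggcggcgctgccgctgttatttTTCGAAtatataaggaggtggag
Aurka: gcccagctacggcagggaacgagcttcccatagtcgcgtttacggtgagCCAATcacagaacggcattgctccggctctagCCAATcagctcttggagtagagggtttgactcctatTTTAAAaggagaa
Cdc20: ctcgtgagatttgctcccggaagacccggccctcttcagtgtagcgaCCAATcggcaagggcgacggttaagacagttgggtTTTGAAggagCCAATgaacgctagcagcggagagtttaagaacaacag
Kif11: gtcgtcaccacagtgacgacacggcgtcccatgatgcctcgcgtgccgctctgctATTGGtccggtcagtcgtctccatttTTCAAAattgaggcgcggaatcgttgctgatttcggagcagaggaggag
Ttk: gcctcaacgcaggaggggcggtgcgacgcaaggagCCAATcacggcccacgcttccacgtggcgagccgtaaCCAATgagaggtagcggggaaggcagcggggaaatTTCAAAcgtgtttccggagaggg
Nusap1: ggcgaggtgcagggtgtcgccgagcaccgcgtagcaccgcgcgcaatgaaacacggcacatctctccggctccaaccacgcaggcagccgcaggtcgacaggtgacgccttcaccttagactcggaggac

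In Ccnb2, CCAAT began 87, 54 and 21 bases before the start and a CHR core began 4 bases after it. The single ATTGG of Cdc25b began 28 bases before the start and its CHR core 7 bases after it. In Kif11 these distances were 45 and 19 bases, both before the start. Ttk had CCAAT at 65 and 28 bases before the start and a CHR core 7 bases after it, the same kinds of element as in Ccnb2 and Cdc25b. Over all members, a CHR core began within 50 bases downstream of a CCAAT in 61.4% of windows, against 2.95% of all windows. That limit was chosen after the positions were seen. The median distance was 31 bases in the 33 members' windows with a CCAAT upstream of a CHR core, and 53 bases in the 1992 such windows of all genes. No CCAAT and no CHR core was found in the windows of Nuf2, Nusap1, Ncaph, Mad2l1 and Pttg1, which says only that these letters are not in these windows. Other members called lower held only 1 of the 2 elements: Anln, Ndc80, Birc5 and Kif2c had a CHR core and no CCAAT, and Nek2 had CCAAT and no CHR core.

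Folds of members with and without these elements covered overlapping ranges. The 30 members with a CHR core within 60 bases of the start had a median of 3.06-fold lower in CD11b+, with a range of 1.49-fold to 14.3-fold and 29 called. The 11 members without it had a median of 3.42-fold, with a range of 1.50-fold to 6.51-fold and 11 called. These are counts of letters set beside measured folds, with no test.

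**Figure D3:**
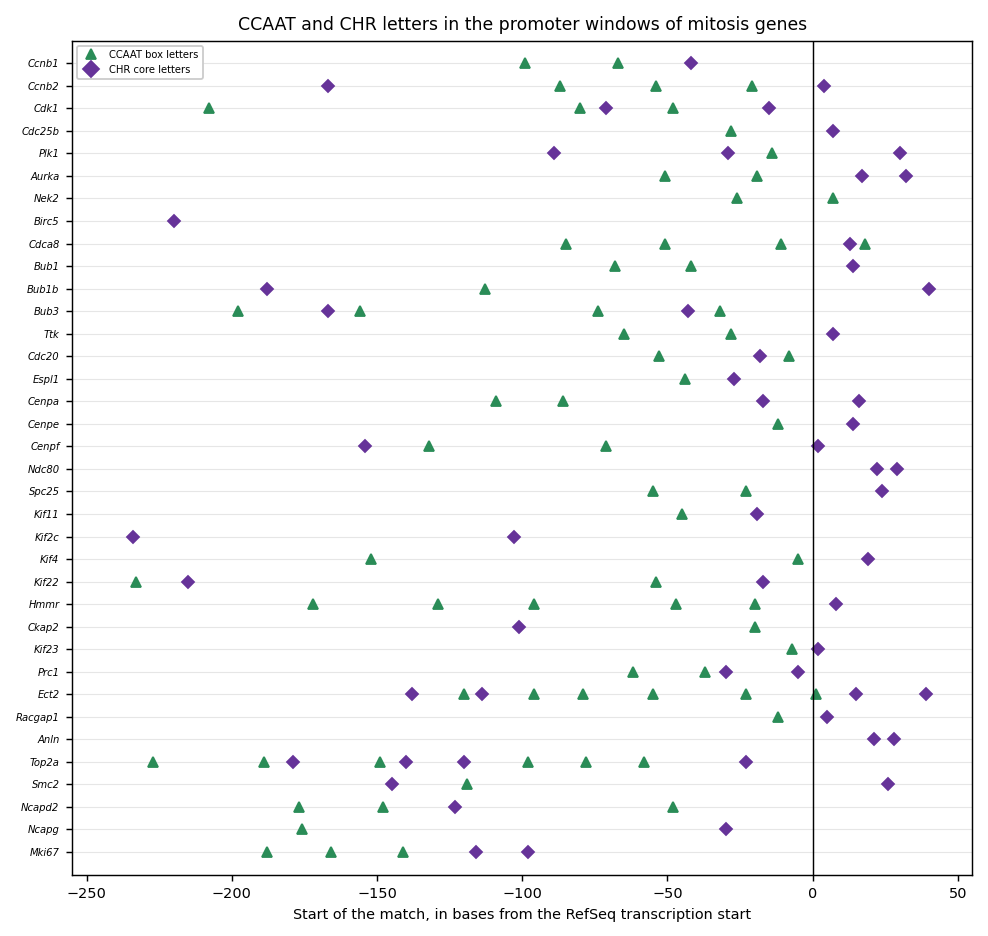
Start of each CCAAT match (triangles) and CHR core match (diamonds), in bases from the RefSeq start (horizontal axis, line at 0), in the promoter windows of the 36 members with at least 1 match. Triangles lie mostly before the start and diamonds cluster around it.

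The genes of mitotic entry fell in CD11b+, with 6 of 7 genes called lower and a median of 3.32-fold. Cdc25b, a phosphatase that removes the inhibitory phosphates from CDK1, had the largest fold of all 50 members. It stood at 31.9, 30.6, 32.4 and 18.5 CPM in CD11b+ replicates 1 to 4 and at 362, 452, 404 and 451 CPM in CD11b- replicates 1 to 4. The populations were far apart, and replicate 4 was the lowest of the CD11b+ libraries. Cdc25b was 14.3-fold lower in CD11b+ (95% interval 10.1 to 20.2), a log2 fold change of -3.84 ± 0.22 (SE) with an adjusted p of 2.77e-06 by edgeR. Its relative Cdc25c averaged 63.9 ± 13.5 CPM in CD11b+ libraries, against 213 ± 122 CPM in CD11b- libraries (SD, n = 4 each), 3.32-fold lower. The wide spread of Cdc25c came with a single library, CD11b- replicate 3 at 391 CPM, against 116 to 181 CPM in the other 3, and without it the gene was 2.27-fold lower with an adjusted p of 0.00672 by edgeR.

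Ccnb2, a cyclin that activates CDK1, measured 442, 412, 333 and 378 CPM in the CD11b+ libraries and 1468, 1597, 1824 and 1592 CPM in the CD11b- libraries. Every CD11b- library exceeded every CD11b+ library, and the fold was 4.04 with an adjusted p of 1.57e-05 by edgeR. Ccna2, the cyclin of S phase and early mitosis, averaged 192 ± 38.3 CPM against 945 ± 161 CPM, 4.79-fold lower in CD11b+. Ccnb1 was 3.30-fold lower and the kinase Cdk1 itself 3.17-fold lower (147 ± 15.1 against 478 ± 47.3 CPM). These cyclins and their kinase lay between 3.17-fold and 4.79-fold apart.

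Foxm1, the transcription factor known for driving many of these genes, was the exception in this group. Its levels were 39.1, 49.5, 52.1 and 23.2 CPM in CD11b+ replicates 1 to 4 and 51.3, 27.3, 33.0 and 50.1 CPM in CD11b- replicates 1 to 4. The populations overlapped, and the means were 41.0 ± 13.1 and 40.4 ± 12.1 CPM (SD, n = 4 each). The 95% interval of the log2 fold change was -0.64 to 0.78. It left room for changes between those bounds, in either direction, while a change of the size of the group's median lay outside it. The log2 fold change itself was 0.07 (adjusted p 0.904 by edgeR). Its sign turned when CD11b+ replicate 2, CD11b+ replicate 3 or CD11b- replicate 2 was left out.

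Nek2, Plk1 and Aurka, the 3 kinases grouped here apart from those of other roles, were called lower in CD11b+, with a median of 3.02-fold. Nek2, which splits the centrosome pair, stood at 45.5, 30.8, 27.0 and 45.3 CPM in CD11b+ libraries, against 242, 211, 284 and 252 CPM in CD11b- libraries. No library of either population came near the other, and Nek2 was 6.51-fold lower in CD11b+ (adjusted p 1.76e-05 by edgeR). Plk1, the Polo-like kinase of entry, spindle and cytokinesis, measured 369.6, 334, 322 and 368 CPM against 908, 839, 985 and 817 CPM. Its fold was smaller, at 2.49 (log2 -1.31 ± 0.14, SE). Aurka, the Aurora kinase of the spindle poles, averaged 219.9 ± 17.0 CPM in CD11b+ libraries, against 681 ± 78.4 CPM in CD11b- libraries, 3.02-fold lower.

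**Figure D4:**
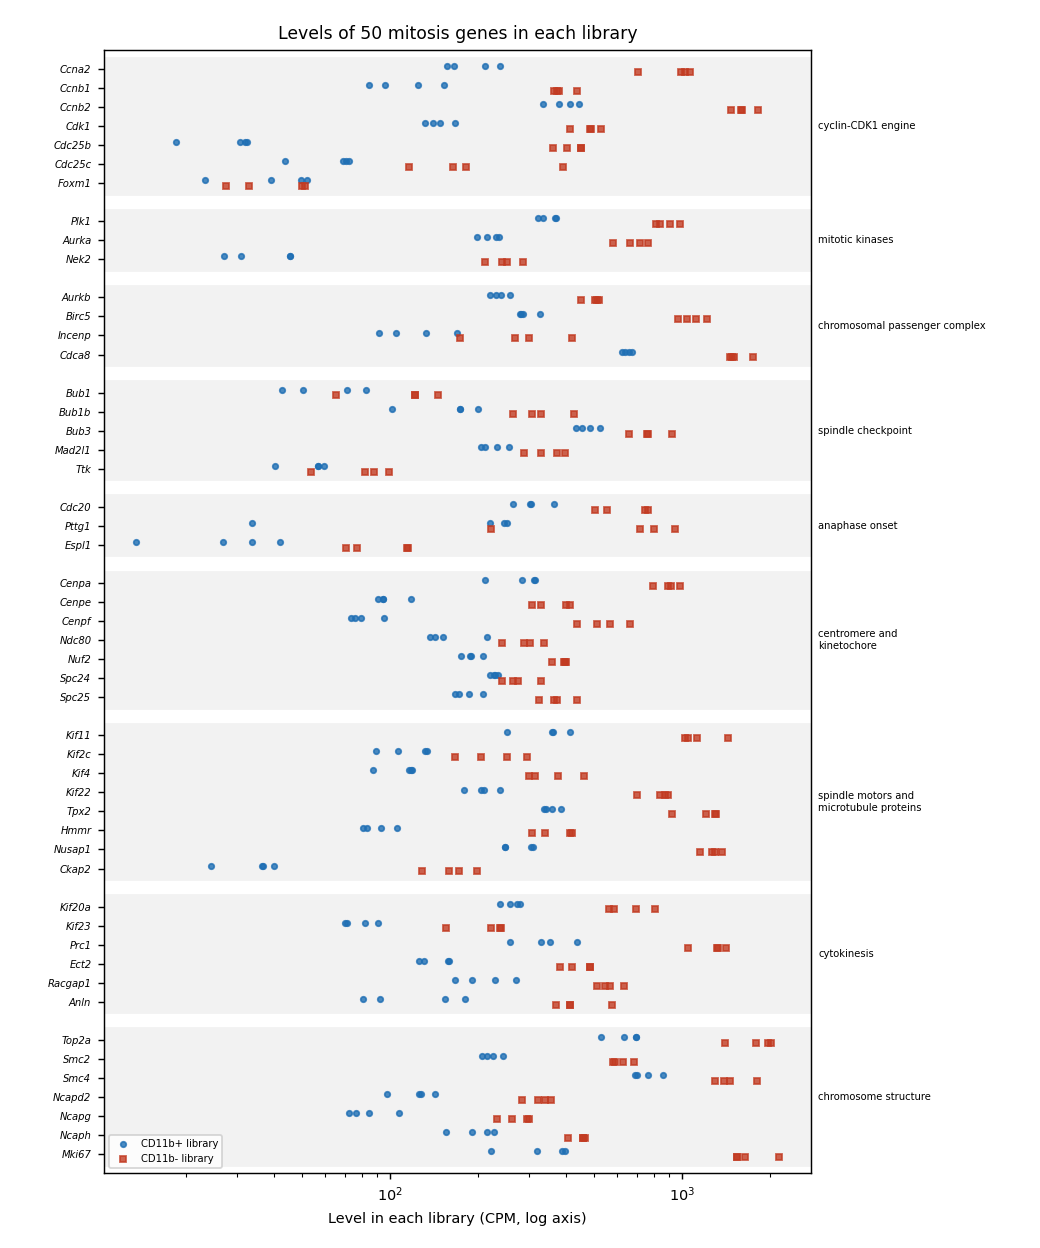
Level of each of the 50 genes in each library in CPM on a log axis, with circles for the 4 CD11b+ libraries and squares for the 4 CD11b- libraries, grouped by role. The circles lie left of all squares for 46 genes; Foxm1, Bub1, Ttk and Pttg1 overlap.

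The chromosomal passenger complex, which corrects faulty attachments and later directs cytokinesis, was lower in all 4 of its genes, with a median of 2.32-fold. Birc5, the survivin subunit, changed most: 281, 279, 327 and 286 CPM in CD11b+ against 968, 1043, 1114 and 1219.9 CPM in CD11b-. That is 3.61-fold lower in CD11b+ (adjusted p 1.04e-05 by edgeR), with no overlap. Cdca8, the borealin subunit, stood at 656, 623, 635 and 672 CPM in CD11b+ libraries, against 1478, 1455, 1754 and 1511 CPM in CD11b- libraries, 2.34-fold lower. Aurkb, the kinase of the complex, was 2.04-fold lower (237 ± 15.9 against 496 ± 30.3 CPM). For Incenp, the scaffold, the fold was 2.30 and the gap narrow: the highest CD11b+ library had 169.6 CPM and the lowest CD11b- library 174 CPM.

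The spindle assembly checkpoint, which holds anaphase until every chromosome is attached, showed the smallest differences of the 9 roles. Of its 5 genes, 4 were called lower, with a median of 1.60-fold. Bub3, an adaptor that brings BUB1 and BUBR1 to kinetochores, measured 482, 455, 524 and 434 CPM in CD11b+ libraries, against 755, 657, 921 and 766 CPM in CD11b- libraries, 1.60-fold lower without overlap (adjusted p 0.00983 by edgeR). Bub1b, which encodes BUBR1, had the largest fold of the group at 1.98. Its level was 174, 199.6, 174 and 102 CPM in CD11b+ libraries, against 307, 263, 329 and 425 CPM in CD11b- libraries, so its populations were separate too. Mad2l1, the checkpoint protein that restrains CDC20, averaged 226 ± 22.3 CPM against 346 ± 48.3 CPM, 1.50-fold lower with an adjusted p of 0.0194 by edgeR.

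Bub1 and Ttk were less clear. Bub1, a checkpoint kinase, measured 82.6, 42.7, 50.5 and 71.0 CPM in CD11b+ libraries, against 122, 121, 65.4 and 146 CPM in CD11b- libraries. CD11b- replicate 3 fell among the CD11b+ libraries, and the fold of 1.78 had an adjusted p of 0.0443 by edgeR. The call for Bub1 was lost on leaving out any of CD11b+ replicates 2, 3 and 4 or CD11b- replicates 1, 2 and 4, with adjusted p from 0.0732 to 0.123. That for Mad2l1 was lost without CD11b+ replicate 2 or 3 or CD11b- replicate 2 or 3, with adjusted p from 0.0516 to 0.0617. Ttk, the MPS1 kinase that starts checkpoint signalling, stood at 40.4, 56.9, 56.5 and 59.3 CPM in CD11b+ libraries, against 99.4, 82.4, 88.4 and 53.7 CPM in CD11b- libraries. Here CD11b- replicate 4 was below 3 of the CD11b+ libraries. The estimate was 1.49-fold with a 95% interval of -1.10 to -0.05 for the log2 fold change and an adjusted p of 0.10 by edgeR. Without CD11b- replicate 4 it was 1.65-fold with an adjusted p of 0.0231.

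The genes of anaphase onset were lower in all 3 cases, with a median of 3.19-fold. Cdc20, the activator that turns the anaphase-promoting complex on, measured 365, 264, 305 and 301 CPM in CD11b+ libraries, against 552, 501, 763 and 745 CPM in CD11b- libraries, 2.03-fold lower (adjusted p 0.00296 by edgeR). The highest CD11b+ library was still below the lowest CD11b- library. Espl1, the separase that cuts cohesin, averaged 29.0 ± 12.1 CPM against 94.5 ± 23.8 CPM, 3.19-fold lower. Pttg1, the securin that holds separase inactive, had the widest relative spread of the 50 genes in CD11b+. It stood at 251, 219, 33.8 and 246 CPM in CD11b+ replicates 1 to 4 and at 802, 943, 222 and 719 CPM in CD11b- replicates 1 to 4. Replicate 3 was the lowest library in both populations, and CD11b- replicate 3 overlapped the CD11b+ range. Pttg1 was 3.42-fold lower with an SE of 0.59 on the log2 scale and an adjusted p of 0.0476 by edgeR. Leaving out any of CD11b+ replicates 1, 2 and 4 or CD11b- replicates 1, 2 and 4 ended the call, with adjusted p from 0.0719 to 0.109. Without CD11b+ replicate 3 the fold was 2.68 (adjusted p 0.0321). Matched by replicate number, CD11b- exceeded CD11b+ by 3.20, 4.30, 6.58 and 2.93 times. The numbers were not read as pairs, so this matching is arbitrary and adds nothing to the call.

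**Figure D5:**
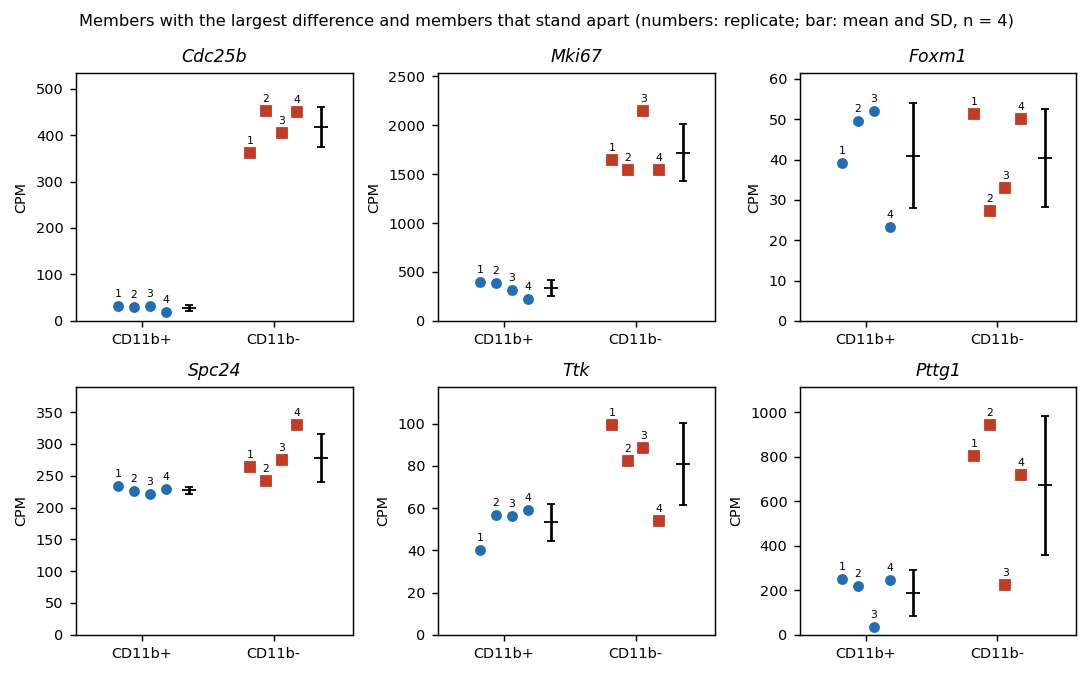
Level in CPM (vertical axes, from 0) of 6 genes in each library, with points numbered by replicate and a bar for the mean and SD (n = 4). Cdc25b and Mki67 are far apart, Foxm1 overlaps, Spc24 differs by little, Ttk overlaps through CD11b- replicate 4, and Pttg1 is lowest in replicate 3 of both populations.

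Kinetochore genes, whose proteins link chromosomes to microtubules, were lower in 6 of 7 cases with a median of 1.98-fold. Cenpf, a large coiled-coil protein of the outer corona, stood at 75.8, 73.7, 95.5 and 79.3 CPM in CD11b+ libraries, against 437, 565, 663 and 512 CPM in CD11b- libraries, 6.59-fold lower (adjusted p 7.31e-06 by edgeR). The gap between the populations was wide and the 4 CD11b+ libraries close together. Cenpe, the corona's kinesin motor, was 3.56-fold lower. Cenpa, the histone variant that marks centromeres, measured 310.0, 314, 284 and 211 CPM against 795, 914, 983 and 897 CPM, 3.13-fold lower. The 4 subunits of the NDC80 complex, the main microtubule coupler, had smaller folds: 1.98 for Nuf2, 1.98 for Spc25, 1.76 for Ndc80 and 1.19 for Spc24. Spc24 was not called. Its level was 234, 226, 221 and 229 CPM in CD11b+ libraries, against 264, 241, 275 and 329.9 CPM in CD11b- libraries. The populations did not overlap, yet the log2 difference was -0.25 with a 95% interval of -0.55 to 0.05 (adjusted p 0.211 by edgeR).

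Spindle genes were lower in all 8 cases, with a median of 3.56-fold, the highest of the 9 roles. Nusap1, which bundles spindle microtubules near chromosomes, measured 303, 308, 248 and 247 CPM in CD11b+ libraries, against 1268, 1365, 1147 and 1291 CPM in CD11b- libraries, 4.45-fold lower (adjusted p 5.2e-06 by edgeR). Ckap2, a microtubule stabiliser, had the largest fold, at 36.5, 40.0, 24.4 and 36.9 CPM against 159.7, 129, 173 and 199 CPM, 4.66-fold lower. Both genes kept their populations well apart. Hmmr, a protein of spindle assembly, was 3.94-fold lower, and the chromosome-arm kinesins Kif22 and Kif4 were 3.88-fold and 3.19-fold lower. Kif11, the motor that pushes spindle poles apart, averaged 346 ± 68.0 CPM against 1158 ± 191 CPM, 3.27-fold lower. Tpx2, the activator of Aurora A, was 3.25-fold lower. The microtubule depolymerase Kif2c had the smallest fold, at 1.95 with an adjusted p of 0.0110 by edgeR.

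Cytokinesis genes were lower in all 6 cases, with a median of 2.83-fold. Prc1, the bundler of the midzone, measured 352, 437, 330.0 and 257 CPM in CD11b+ libraries, against 1048, 1317, 1409 and 1322 CPM in CD11b- libraries. It had the largest fold of the group, 3.62-fold lower (adjusted p 0.000103 by edgeR), with no overlap. Anln, the anillin scaffold of the contractile ring, was 3.42-fold lower, and Ect2, the exchange factor that activates RhoA, 3.01-fold lower. Racgap1 and Kif23, which form the centralspindlin complex together, were close to each other at 2.57-fold and 2.65-fold. Kif20a, a midzone kinesin, was 2.46-fold lower (262 ± 17.9 against 662 ± 112 CPM).

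Genes of mitotic chromosome structure were lower in all 7 cases, with a median of 2.71-fold. Mki67, which encodes the Ki-67 protein that coats mitotic chromosomes and is used as a label of cycling cells, stood at 396, 389, 318 and 221 CPM in CD11b+ libraries, against 1647, 1542, 2147 and 1543 CPM in CD11b- libraries. It was 5.08-fold lower (log2 -2.34 ± 0.24, SE, adjusted p 6.63e-05 by edgeR), the largest fold of this group and far from overlap. Top2a, the topoisomerase that untangles sister chromatids, measured 698, 632, 698 and 526 CPM against 1404, 1967, 2010.1 and 1790.0 CPM, 2.75-fold lower. The subunits of condensin I, which compacts chromosomes, followed in turn. Ncapg was 3.11-fold lower, Smc2 2.71-fold, Ncapd2 2.56-fold, Ncaph 2.21-fold and Smc4 1.92-fold.

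The checkpoint genes were the least apart by their sum as well as by their median. Summed CPM was 4.19 times higher in CD11b- for the entry genes, 3.62 for the spindle, 3.08 for cytokinesis, 2.998 for Nek2, Plk1 and Aurka, 2.83 for chromosome structure, 2.68 for anaphase onset, 2.63 for the passenger complex, 2.56 for kinetochores and 1.69 for the checkpoint. No test was made between roles.

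Beyond the 50 genes, 102 other genes of the mitotic pathway were read out, of which 101 were tested. Of them, 55 were called lower in CD11b+, 3 higher and 43 not called, with a median of 1.63-fold lower (log2 -0.70). The largest falls were in Fzr1 (243 ± 17.7 against 2087 ± 295 CPM, 8.39-fold), the late-mitotic activator of the anaphase-promoting complex, in Ube2c (136 ± 15.0 against 893 ± 222 CPM, 6.39-fold), its ubiquitin-conjugating enzyme, and in Mad2l1bp (25.3 ± 9.33 against 151 ± 30.1 CPM, 5.86-fold), which silences the checkpoint. Those called higher in CD11b+ were Fam64a (32.8 ± 7.00 against 10.4 ± 3.97 CPM, 3.24-fold), Anapc11 (44.4 ± 1.94 against 25.5 ± 4.42 CPM, 1.80-fold) and Arpp19 (223 ± 27.4 against 161 ± 29.9 CPM, 1.43-fold). By structure, in groups made after the values were seen, the inner kinetochore CENP genes had 7 of 11 lower, cohesin 5 of 9, condensin II 3 of 3 and other kinesins 4 of 7, beside 15.0% of all tested genes. The anaphase-promoting complex itself had 2 of 12 lower (Anapc5 and Cdc23), 1 higher (Anapc11) and 9 not called, with a median of 1.12-fold. Those counts are near the shares of all tested genes called lower (15.0%) and higher (14.6%) and are no result about the complex. Its activators Cdc20 and Fzr1 were both called lower.

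DNA replication genes, read out as the neighbouring stage of the cycle, were also lower in CD11b+. By edgeR, 25 of 38 S phase genes were called lower, with a median of 1.68-fold, beside 15.0% of all tested genes. The count called higher was 0, beside 14.6% of all tested genes. It was also 0 at an unadjusted p of at most 0.05 and by DESeq2, limma and voom. The summed S phase level was 9844, 9983, 9591 and 10560.1 CPM in CD11b+ libraries, against 20289.8, 20640.0, 19744 and 24110.1 CPM in CD11b- libraries, 2.12 times higher in CD11b-. The ratio of summed mitosis level to summed S phase level was 1.14, 1.14, 1.08 and 0.920 in CD11b+ and 1.44, 1.51, 1.71 and 1.31 in CD11b-. All 4 CD11b+ ratios were below all 4 CD11b- ratios. Rrm2 alone gave a mean of 1585 of 9994 CPM of the S phase sum in CD11b+ and 5460 of 21196 CPM in CD11b-. No test was made of the ratio, and what lies behind it was not tested.

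Within a population, the extremes fell unevenly over the libraries. CD11b+ replicate 4 was the lowest of its population for 24 of 50 members, and replicates 1 and 2 were the highest for 19 and 18. In CD11b-, replicate 3 was the highest for 21 members and replicate 1 the lowest for 18. CD11b- replicates 1 and 2 were also the libraries of their population with the most Mpo, a primary granule gene. Without that pair, 44 of the 50 members were called lower, with a median log2 fold change of -1.58.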

How the data were processed

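RNA of sorted cells was made into SmartSeq2 libraries, per the labels' protocols, 4 per population. The authors deposited counts per gene for each library and a table of CPM over all libraries. The CPM equal those computed from the deposited counts within 0.0005. Per the submitters' processing notes, the tools were TopHat2, HTSeq 0.10.0 and DESeq2 and the build mm9. How strand and multiply mapped reads were handled is not given in the sources used here, so genes with near-identical copies or an overlapping partner are uncertain.

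The 27 rows without a gene name (0.205% to 0.514% of counts) were left out. Counts were tested with edgeR 4.0.16 in R 4.3.3: TMM scaling, the default filter on low counts, a quasi-likelihood fit of all 8 libraries with no covariate, and Benjamini-Hochberg adjustment over 11965 genes. The standard error is the log2 fold change over the square root of the test's F. The script was also run on simulated counts in which 200 genes changed by known amounts. That is far fewer than the 3549 genes called here, so it was no check of the scaling in these data. A floor of 3 counts was 0.0626 to 0.109 CPM. Intervals are 95% intervals of the difference between the populations, built from the standard error. They draw on the spread between libraries but are not ranges of single libraries. Exon lengths came from GENCODE M21, a later build than mm9, by symbol, and promoters from RefSeq GRCm38.p6. No coordinates were taken between builds.

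The members, roles and lists were chosen with earlier results of these data known. Values in every library are given for the called gene with the largest fold and the gene with the highest mean CPM in each role, and for genes not called. Bub1 was added after its values were seen. Alternatives covered scaling, filters, DESeq2 1.42.0, limma 3.58.1, a replicate block, a minimum fold and leaving out libraries.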

Additional observations from a re-analysis of the deposited data

Results flagged for a closer look

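In 9 of the 100 groups of 4 libraries (50 genes in each of 2 populations), a single library stood apart from the other 3 by Dixon's test at the 95% level, where chance gives about 1 in 20. Within CD11b+, replicate 4 was low for both CDC25 phosphatases: Cdc25b at 18.5 CPM (others 30.6 to 32.4) and Cdc25c at 43.7 CPM (others 68.9 to 72.2). CD11b+ replicate 3 was high for Birc5 at 327 CPM (others 279 to 286) and low for Pttg1, the securin, at 33.8 CPM (others 219 to 251). CD11b+ replicate 1 was low for the checkpoint kinase Ttk at 40.4 CPM (others 56.5 to 59.3) and high for the kinesin Cenpe at 118 CPM (others 90.7 to 94.6). CD11b+ replicate 2 was low for Kif4 at 87.7 CPM (others 116 to 119). In CD11b-, replicate 1 was low for Nuf2 at 359.8 CPM (others 395 to 399.7) and replicate 2 low for the condensin subunit Ncaph at 406 CPM (others 457 to 466).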

How the results depend on the processing

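Over 20 alternatives, 29 of the 50 genes kept both their direction and their side of the threshold, and 16 others changed their side only when the test was made against a minimum fold of 2. Against that fold, edgeR called 28 mitosis genes and 19 other mitotic genes lower, and 1774 genes in either direction over the whole table. It called 0 other mitotic genes higher (1 at an unadjusted p of at most 0.05). DESeq2 called 5 other mitotic genes higher, against 3 in the main test. It also called more genes over the whole table, 4745 against 3549 in either direction. Leaving out 1 library left 44 to 46 mitosis genes called lower. Totals without the 20 most abundant genes moved the median of all genes from -0.01 to 0.09 on the log2 scale and that of the members from -1.59 to -1.48, with 45 called lower. With the replicate block, 46 were called lower, of 3195 genes called in all, and the call lost was Mad2l1 (adjusted p 0.0559). Libraries of the same number did not deviate together (correlations of 0.002 to 0.043), so the numbers were not read as pairs. Without CD11b- replicates 1 and 2, Pttg1 was 2.42-fold lower (adjusted p 0.250), Bub1 had an adjusted p of 0.191 and Mad2l1 of 0.0818, all by edgeR. No leave-out of 1 library moved a called member's fold by over 1.5 times. The causes of these changes were not tested.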

Other observations

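Pttg1 was low in replicate 3 of both populations, and few other genes shared that arrangement. Among 8003 genes with a mean of at least 10 CPM, 121 were at least 2-fold lower in CD11b+ replicate 3 than in each of the other 3 CD11b+ replicates, and 515 were so in CD11b- replicate 3. Both held for 11 genes, Pttg1 among them. Replicate 1 was low for 153 genes in CD11b+, 279 in CD11b- and 21 in both. For replicate 2 the counts were 210, 301 and 9, and for replicate 4 they were 195, 380 and 18. Whether these overlaps exceed what the separate counts would give was not tested.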
